A study of Homo sapiens with 27 samples.

Results

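KRT20, CDX2, TFF3, CDH17, VIL1, KRT8 and KRT18 are 7 genes by which intestinal epithelium and its degree of differentiation are commonly recognised. They were taken by symbol from a list of 9 names, out of 10470 genes with values in the table. CDX1 and LGALS4, the other two names, were not analysed here.

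The cells were DLD1, an established human colorectal carcinoma line, grown in medium with serum. They were left non-transfected (NT) or were transfected for 72 h with control siRNA (siCTRL) or with siRNA against VPS37A, VPS37B or VPS37C, singly, in every pair and all 3 together. VPS37 proteins are interchangeable subunits of ESCRT-I, a complex that sorts ubiquitinated membrane proteins on endosomes for degradation. Each of the 9 groups (NT, siCTRL, siVPS37A, siVPS37B, siVPS37C, siVPS37AB, siVPS37AC, siVPS37BC and siVPS37ABC) held 3 libraries, 1 from each of 3 batches named in the labels. The labels number the control group's siRNA as siCTRL#1 and list further non-targeting siRNAs without the groups that received them, and a single siRNA sequence stood for each paralog, so that effects of a sequence and of its target cannot be told apart. RNA was read with an amplicon panel. The values are relative abundances that sum to 1000000 in every library and are called TPM here. The sequencing depth behind them is unknown, so no counting interval could be given.

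The siRNA targets were low where the labels say so. VPS37A fell from a mean of 5.80 TPM in siCTRL to between 5.5% and 9.1% of that level in the groups that received its siRNA, VPS37B from 46.4 TPM to between 3.35% and 7.42%, and VPS37C from 17.5 TPM to between 21.6% and 28.7%. Of 9 markers of colorectal epithelium, 8 were in the table and 7 averaged 10 TPM or more. Of 13 markers of stroma, leukocytes and endothelium, 3 (ACTA2, CD14 and CSF1R) were in the table and none reached a mean of 10 TPM. Their summed level was between 7.18 and 7.85 TPM in siVPS37ABC and between 11.2 and 13.4 TPM in siCTRL. In NT it was between 7.23 and 12.3 TPM, and in siVPS37AB between 7.79 and 12.1 TPM. The part of this sum in the results was not tested. Of 6 neuroendocrine markers, only SCG5 was in the table. In a culture measured in bulk, fewer cells that express a gene and less RNA per cell cannot be told apart.

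CDX2 is a homeobox transcription factor that specifies and maintains intestinal identity, and its targets include genes of enterocytes and goblet cells. KRT20 is an intermediate filament keratin that appears as intestinal epithelial cells leave the crypt and mature, and CDX2 and KRT20 together are used by pathologists to recognise colorectal tumours. TFF3 is a secreted trefoil peptide of goblet cells, CDH17 the intestinal cadherin, VIL1 the actin-bundling protein of the brush border, and KRT8 and KRT18 the filament pair of simple epithelia.

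The stretches upstream of KRT20 and CDX2 are shown because these had the largest rise and fall against siCTRL among the members, and because CDX proteins bind sites with a TTTAT core. They are RefSeq sequences in GRCh38.p14, 250 bases ending just before the annotated start, from the minus strand. KRT20 lies on chromosome 17 (chr17:40885243-40885492) and CDX2 on chromosome 13 (chr13:27969316-27969565). Capitals mark TTTAT and its complement on the other strand, ATAAA.
KRT20: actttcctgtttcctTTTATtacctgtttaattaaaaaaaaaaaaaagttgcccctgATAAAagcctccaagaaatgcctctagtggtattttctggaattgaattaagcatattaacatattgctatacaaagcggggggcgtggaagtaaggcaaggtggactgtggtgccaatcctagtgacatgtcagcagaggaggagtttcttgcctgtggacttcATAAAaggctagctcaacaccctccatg
CDX2: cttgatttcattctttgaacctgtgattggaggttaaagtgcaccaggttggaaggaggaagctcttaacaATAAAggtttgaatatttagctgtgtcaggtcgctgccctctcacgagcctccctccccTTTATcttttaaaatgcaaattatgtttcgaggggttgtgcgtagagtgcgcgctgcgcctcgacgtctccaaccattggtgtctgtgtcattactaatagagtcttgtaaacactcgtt
The KRT20 stretch held TTTAT 1 time on the printed strand and 2 times on the other, and the CDX2 stretch 1 time on each. The longer form TTTATG, which contains TTTAT, was found 1 time upstream of KRT20, on the other strand 29 bases before the start, and 0 times upstream of CDX2. On either strand, TTTAT stood in 32.7% and TTTATG in 9.64% of 35116 upstream stretches of the same length, so a match is a description of the letters and not of a binding site.

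KRT20 was lowest in siCTRL and highest after depletion of all 3 paralogs. In siCTRL its level was 33.2, 26.1 and 24.4 TPM in replicates 1, 2 and 3, and in siVPS37ABC it was 101, 92.3 and 93.7 TPM. The 2 groups did not overlap, and the mean in siVPS37ABC (95.5 ± 4.43 TPM, SD, n = 3) was 342% of that in siCTRL (27.9 ± 4.66 TPM, SD, n = 3). In siVPS37AB the libraries read 82.6, 62.7 and 58.7 TPM, and the lowest of these was above every siCTRL library. The next group down, siVPS37AC, read 56.9, 46.5 and 40.3 TPM, again above all 3 siCTRL libraries. In siVPS37A KRT20 was at 40.2, 37.0 and 52.6 TPM, and in siVPS37BC at 51.3, 44.6 and 31.9 TPM. In siVPS37C it was at 39.2, 39.8 and 33.1 TPM, and in siVPS37B at 37.4, 38.7 and 24.2 TPM. The siVPS37B libraries straddled the siCTRL range, and the lowest siVPS37BC and siVPS37C libraries were within it. NT cells gave 57.7, 55.7 and 62.4 TPM, which overlapped siVPS37AB and lay above every siCTRL library. Ordered by mean, the groups ran from siCTRL through siVPS37B, siVPS37C, siVPS37BC, siVPS37A, siVPS37AC, NT and siVPS37AB to siVPS37ABC. Only the last 2 neighbours in that order, siVPS37AB and siVPS37ABC, had ranges that did not overlap.

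CDX2 ran the other way. In siCTRL its libraries read 135, 162 and 167 TPM, and in siVPS37ABC 58.9, 83.2 and 48.2 TPM. The groups did not overlap, with means of 155 ± 17 and 63.4 ± 18 TPM (SD, n = 3). In siVPS37AB CDX2 was at 66.5, 96.6 and 57.8 TPM, also below every siCTRL library and overlapping siVPS37ABC. The siVPS37A libraries read 106, 108 and 126 TPM, and the siVPS37AC libraries 105, 135 and 103 TPM. Every siVPS37A library was below siCTRL, and the highest siVPS37AC library was level with the lowest of siCTRL. In siVPS37BC the values were 119, 133 and 128 TPM, in siVPS37C 144, 143 and 116 TPM, and in siVPS37B 147, 177 and 124 TPM. NT cells read 185, 157 and 167 TPM. From lowest to highest mean, CDX2 was ordered siVPS37ABC, siVPS37AB, siVPS37A, siVPS37AC, siVPS37BC, siVPS37C, siVPS37B, siCTRL and NT, and the only neighbours whose ranges did not overlap were siVPS37AB and siVPS37A.

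**Figure D1:**
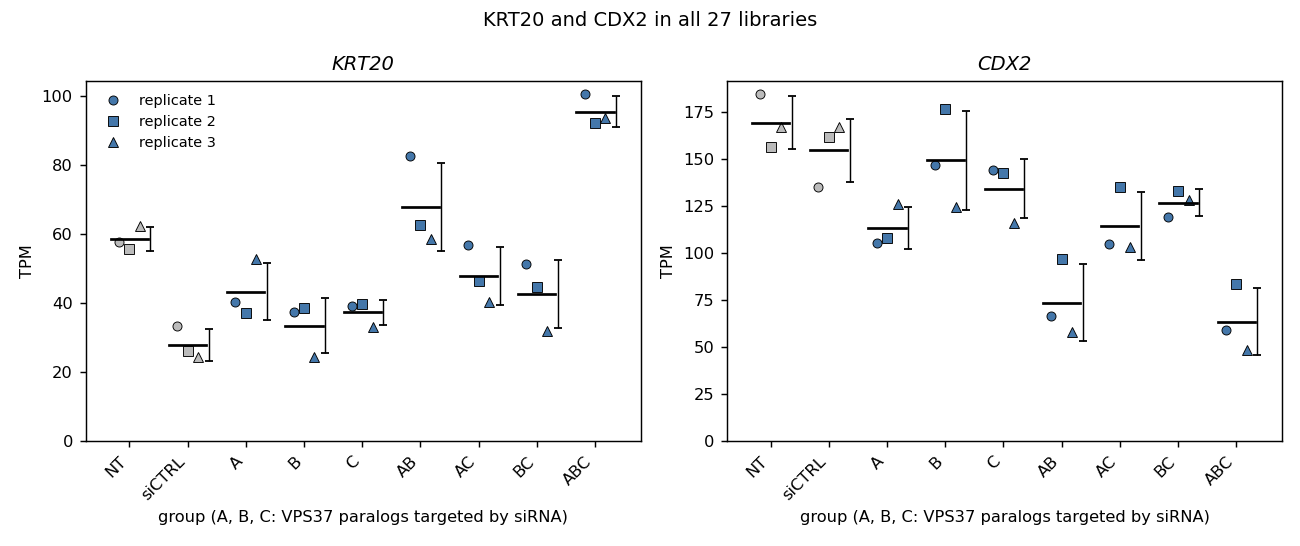
KRT20 and CDX2 levels (TPM) in each library of the 9 groups, with points for libraries and bars for the mean ± SD (n = 3). KRT20 lies between 92.3 and 101 TPM in siVPS37ABC, above every other library, and CDX2 is below 100 TPM only in siVPS37AB and siVPS37ABC.

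Differences were tested with limma on log2(TPM + 1), which understates the change of low genes, over the 6458 genes that averaged 10 TPM or more, and were called at a Benjamini-Hochberg adjusted p under 0.05. All 7 knockdown groups were set against the same 3 siCTRL libraries, so these comparisons are not independent of each other. KRT20 rose by 1.75 ± 0.19 (log2, SE, adjusted p = 2.17e-07) in siVPS37ABC and by 1.25 ± 0.19 (adjusted p = 4.92e-05) in siVPS37AB. CDX2 fell by 1.30 ± 0.18 (adjusted p = 1.06e-05) in siVPS37ABC and by 1.09 ± 0.18 (adjusted p = 1.99e-04) in siVPS37AB. Within batches 1, 2 and 3 the KRT20 difference between siVPS37ABC and siCTRL was 1.57, 1.78 and 1.90, and the CDX2 difference was -1.19, -0.95 and -1.77. KRT20 also rose in siVPS37AC, by 0.76 (adjusted p = 0.0203), although that call was lost without siVPS37AC replicate 1 (adjusted p = 0.114) or 2 (adjusted p = 0.0696) and without siCTRL replicate 2 (adjusted p = 0.0821) or 3 (adjusted p = 0.0922), and with quantile normalization (adjusted p = 0.0692). In siVPS37A and siVPS37BC the KRT20 differences of 0.61 and 0.58 did not pass (adjusted p = 0.101 and 0.158), and both passed with the batch as a replicate block (adjusted p = 0.0190 and 0.0353). In siVPS37B and siVPS37C they were 0.23 and 0.41, neither past the threshold (adjusted p = 0.560 and 0.561). For CDX2 the differences in siVPS37A, siVPS37B, siVPS37C, siVPS37AC and siVPS37BC were -0.44, -0.06, -0.20, -0.44 and -0.28, and none passed.

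Of the 7 members, 6 averaged 10 TPM or more and entered the test over all genes. In siVPS37ABC 2 of these 6 rose (KRT20 and CDH17) and 1 fell (CDX2), where 21.9% of all tested genes were called, 13.6% higher and 8.32% lower. The same counts held for siVPS37AB, with 14.8% called, 11.2% higher and 3.61% lower. In siVPS37B 2 rose (TFF3 and CDH17), with 1.72% called and 0.929% called higher, and in siVPS37AC 1 rose (KRT20), with 4.4% called and 3.07% called higher. No member was called by limma in siVPS37A, siVPS37C or siVPS37BC, where 1.83%, 0.496% and 1.29% of genes were called. At an unadjusted p under 0.05 there were 4, 2 and 3 members in those groups, beside 13.2%, 8.08% and 12.4% of all tested genes. With the replicate block there were 3, 1 and 2 members, beside 6.33%, 2.07% and 4.38% of genes. In siVPS37AC the block called 2 members, beside 11.8% of genes. The members' median log2 change was 0.34 in siVPS37ABC beside 0.03 over all tested genes. It was 0.37 in siVPS37A, 0.16 in siVPS37B, 0.24 in siVPS37C, 0.28 in siVPS37AB, 0.35 in siVPS37AC and 0.33 in siVPS37BC, so it was not particular to siVPS37ABC. In siCTRL against NT the members' median was -0.29, and in siVPS37ABC against NT it was 0.20 beside 0.04 over all tested genes.

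**Figure D2:**
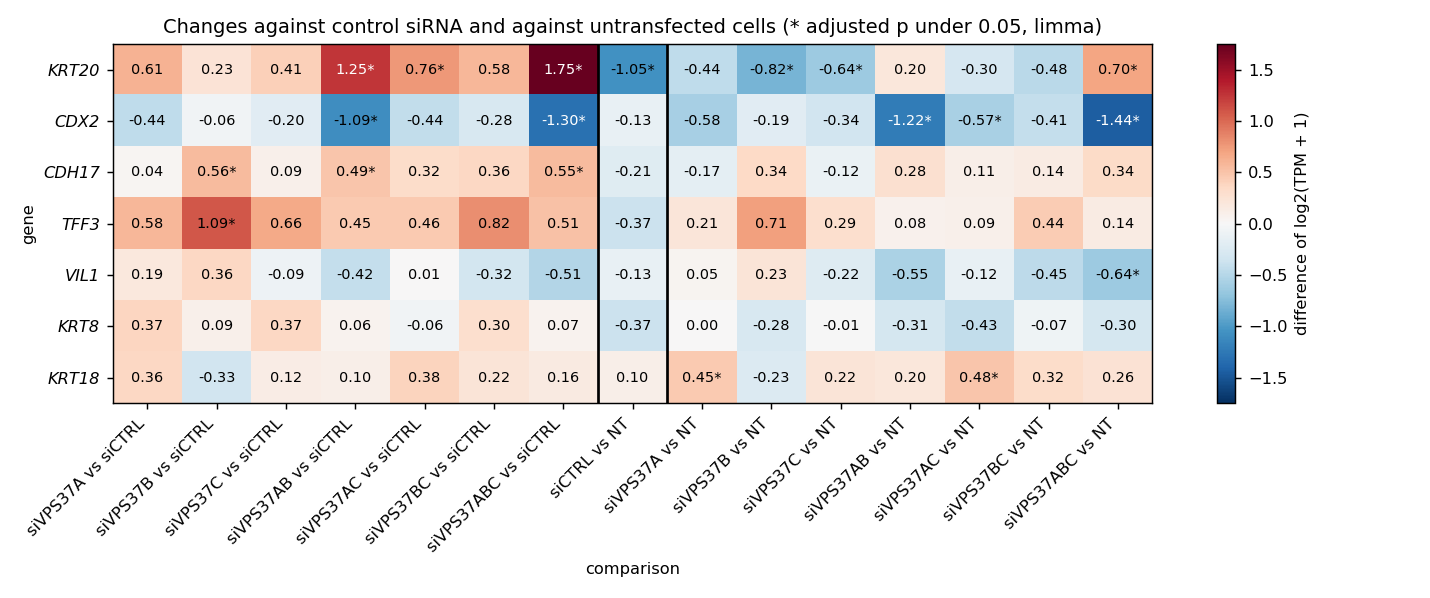
Differences of log2(TPM + 1) for the 7 members (rows) in each knockdown group against siCTRL, in siCTRL against NT, and in each knockdown group against NT (columns), as colours with the value in each cell and an asterisk at an adjusted p under 0.05. KRT20 reads 1.75 in siVPS37ABC against siCTRL and 0.70 against NT, CDX2 reads -1.30 and -1.44, and no KRT8 cell has an asterisk.

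The choice of control mattered for KRT20 and not in the same way for CDX2. KRT20 was lower in siCTRL than in NT in 3 of 3 batches and fell by 1.05 ± 0.19 on the log2 scale (adjusted p = 0.00168), to 47.6% of the NT mean. It was the 1 member of 6 called between these controls, where 3.17% of all tested genes were called and 2.17% were called lower. The CDX2 difference between siCTRL and NT was -0.13 with a 95% confidence interval from -0.51 to 0.24 (adjusted p = 0.749). Against NT, KRT20 rose only in siVPS37ABC, by 0.70 (adjusted p = 0.00769), to 163% of the NT mean, and the within-batch differences were 0.79, 0.72 and 0.58. In siVPS37AB it differed from NT by 0.20 (adjusted p = 0.518). In siVPS37B and siVPS37C KRT20 fell against NT (-0.82, adjusted p = 0.0118, and -0.64, adjusted p = 0.0433). The differences in siVPS37A, siVPS37AC and siVPS37BC were -0.44, -0.30 and -0.48 and did not pass, the last one passing with the replicate block (adjusted p = 0.0475). CDX2 fell against NT in siVPS37ABC (-1.44, adjusted p = 2.52e-06), siVPS37AB (-1.22, adjusted p = 4.55e-05) and siVPS37AC (-0.57, adjusted p = 0.0384). In siVPS37A it differed from NT by -0.58 (adjusted p = 0.0562, and 0.0118 with the replicate block). Against NT, 25.3% of genes were called in siVPS37ABC (14.3% higher, 11% lower), 19% in siVPS37AB (6.01% lower) and 14.1% in siVPS37AC (8.64% higher, 5.45% lower). In siVPS37B 4.13% were called (2.54% lower), in siVPS37C 5.54% (3.56% lower) and in siVPS37BC 5.54%.

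Each library also carries a number in its description whose meaning is not given and which is tied to the groups to different degrees. No library of siVPS37A, siVPS37AB or siVPS37BC shares a number with a siCTRL library, and siVPS37ABC shares only number 88. The number and the knockdown therefore cannot be told apart when siVPS37A, siVPS37AB or siVPS37BC is set against siCTRL alone. Number 88 holds libraries of NT, siCTRL, siVPS37AC and siVPS37ABC. Among them KRT20 was 33.2 and 26.1 TPM in siCTRL, 57.7 and 55.7 TPM in NT, 40.3 TPM in siVPS37AC and 93.7 TPM in siVPS37ABC. CDX2 was 135 and 162 TPM in siCTRL, 103 TPM in siVPS37AC and 48.2 TPM in siVPS37ABC under the same number. The siVPS37ABC value is a single library from another batch than those siCTRL libraries, and the part of the number in the results was not tested beyond the following fit. With the number as a term in the fit, the KRT20 call in siVPS37AC was lost (0.43, adjusted p = 0.0929), and CDX2 was called lower in siVPS37A (-0.72, adjusted p = 0.0354), siVPS37AC (-0.74, adjusted p = 0.00342) and siVPS37BC (-0.69, adjusted p = 0.0437). The values for siVPS37A and siVPS37BC in that fit rest only on links through other groups.

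Depletion of all 3 paralogs was next set against each pair. Relative to siVPS37AC, KRT20 rose by 0.99 (adjusted p = 0.00222) and CDX2 fell by 0.87 (adjusted p = 0.00528), with 4.35% of tested genes called, 2.46% higher and 1.89% lower. Relative to siVPS37BC, KRT20 rose by 1.17 (adjusted p = 1.50e-04) and CDX2 fell by 1.02 (adjusted p = 4.46e-04), with 12% called, 7.46% higher and 4.55% lower. Relative to siVPS37AB, neither passed: the KRT20 difference was 0.50 (adjusted p = 0.337) and the CDX2 difference -0.21 (adjusted p = 0.849), and 1.04% of genes were called. In that last comparison limma called 0 of 6 members, 1 member had an unadjusted p under 0.05, beside 8.95% of genes, and the replicate block called 0, beside 3.3% of genes.

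Averaged over the 8 transfected groups, 12 libraries with an siRNA were compared with 12 without it. The VPS37A siRNA went with higher KRT20, by 0.78 ± 0.09 (log2, SE, adjusted p = 7.06e-07), and with lower CDX2, by -0.68 ± 0.09 (adjusted p = 3.54e-06). For the VPS37B siRNA the values were 0.51 for KRT20 (adjusted p = 6.02e-04) and -0.41 for CDX2 (adjusted p = 0.00307). For the VPS37C siRNA they were 0.35 for KRT20 (adjusted p = 0.0160) and -0.16 for CDX2 (adjusted p = 0.306). The VPS37B average for CDX2 takes in -0.06 for siVPS37B against siCTRL and -0.87 for siVPS37ABC against siVPS37AC, so it does not hold for each of them. In the same comparisons the VPS37B average for KRT20 takes in 0.23 and 0.99. The VPS37A averages are uneven too. For siVPS37A against siCTRL and siVPS37ABC against siVPS37BC, they take in 0.61 and 1.17 for KRT20 and -0.44 and -1.02 for CDX2. With the library number as a term, the VPS37C value for KRT20 no longer passed (0.22, adjusted p = 0.0873), and that for CDX2 did (-0.24, adjusted p = 0.0322). These averages called 29.1% of tested genes for VPS37A (20.9% higher, 8.13% lower), 16.2% for VPS37B (8.69% higher, 7.54% lower) and 10.5% for VPS37C (4.99% higher).

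**Figure D3:**
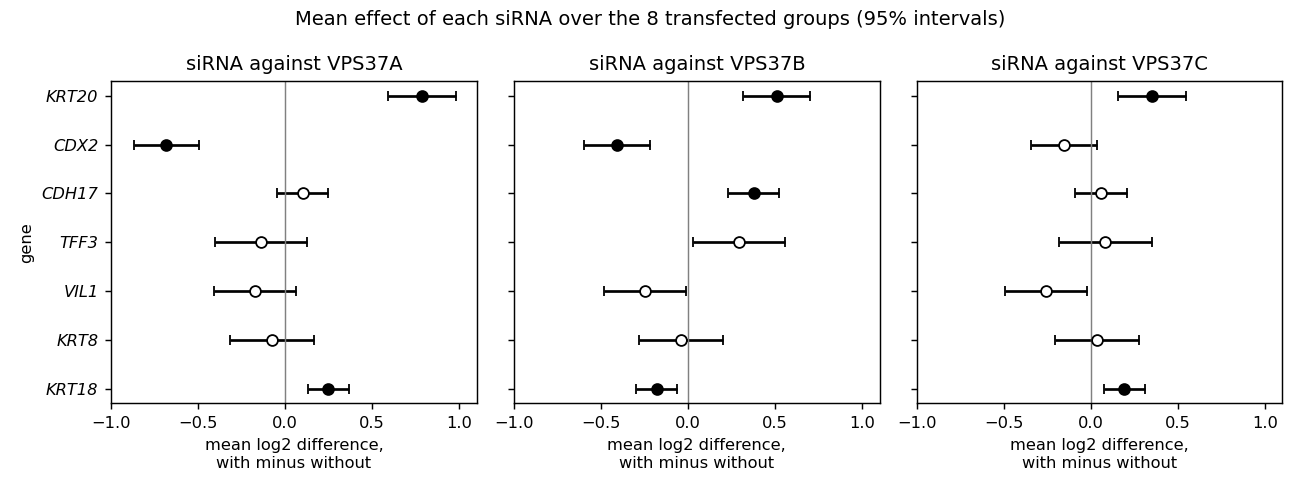
Mean log2 difference of each member between the 12 transfected libraries with and the 12 without the siRNA against VPS37A, VPS37B or VPS37C, with bars for 95% confidence intervals and filled points for an adjusted p under 0.05. For KRT20 the values are 0.78, 0.51 and 0.35, all above 0, and for CDX2 they are -0.68, -0.41 and -0.16, all below 0.

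Whether a combination differed from the sum of its single knockdowns was tested as the combined change minus the single changes on the log2 scale. For KRT20 this departure was 0.41 ± 0.27 for siVPS37AB (95% confidence interval -0.14 to 0.95) and 0.49 ± 0.38 for siVPS37ABC. For CDX2 it was -0.58 ± 0.26 in siVPS37AB (95% confidence interval -1.12 to -0.05, adjusted p = 0.607) and -0.60 ± 0.37 in siVPS37ABC (adjusted p = 0.785). Neither gene passed for any combination, and limma called 0% of the tested genes for all 4 departures. At an unadjusted p under 0.05 there were 483, 250, 300 and 449 of 6458 genes for siVPS37AB, siVPS37AC, siVPS37BC and siVPS37ABC, and with the replicate block 33, 0, 2 and 18 were called, which is 0.511% for siVPS37AB and 0.279% for siVPS37ABC. The KRT20 interval for siVPS37AB includes both 0 and the 0.61 that siVPS37A alone gave.

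CDH17, the cadherin that joins intestinal epithelial cells, had its highest means in siVPS37B, siVPS37ABC and siVPS37AB. It read 31.5, 38.5 and 38.2 TPM in siCTRL, 48.0, 48.7 and 64.5 TPM in siVPS37B, and 48.6, 48.9 and 55.5 TPM in siVPS37AB. In siVPS37ABC it was at 44.5, 53.3 and 63.2 TPM, so that none of these 3 groups overlapped siCTRL. Neither did siVPS37AC (40.3, 47.5 and 47.7 TPM) nor siVPS37BC (45.8, 42.6 and 50.7 TPM). CDH17 rose by 0.55 in siVPS37ABC (adjusted p = 0.00664), by 0.49 in siVPS37AB (adjusted p = 0.0218) and by 0.56 in siVPS37B (adjusted p = 0.0453). The siVPS37ABC call was lost without siVPS37ABC replicate 3 (adjusted p = 0.0508), the siVPS37AB call without siCTRL replicate 1 (adjusted p = 0.110) or siVPS37AB replicate 3 (adjusted p = 0.0961), and the siVPS37B call without any 1 of its 6 libraries (adjusted p from 0.0716 to 0.162), with the library number (adjusted p = 0.0720) and with only the groups compared (adjusted p = 0.197). Its differences in siVPS37A, siVPS37C, siVPS37AC and siVPS37BC were 0.04, 0.09, 0.32 and 0.36 and did not pass. The average over the transfected groups rose by 0.38 ± 0.07 with the VPS37B siRNA (adjusted p = 8.22e-04), beside 0.10 with VPS37A and 0.06 with VPS37C, neither of which passed. With the library number as a term, the CDH17 rise in siVPS37AC (0.53, adjusted p = 0.0159) and the VPS37A average (0.22, adjusted p = 0.0431) did pass. NT cells gave 36.3, 42.9 and 46.9 TPM, and against NT no CDH17 difference passed, with values of 0.34 in both siVPS37B and siVPS37ABC (adjusted p = 0.192 and 0.0876, and 0.0393 and 0.0162 with the replicate block).

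TFF3, the goblet cell trefoil peptide, was highest in siVPS37B. Its libraries read 9.1, 17.5 and 9.1 TPM in siCTRL and 20.4, 31.6 and 25 TPM in siVPS37B, with no overlap. The rise of 1.09 ± 0.26 (adjusted p = 0.0307) was lost without siCTRL replicate 1 (adjusted p = 0.118) or 3 (adjusted p = 0.164) and without siVPS37B replicate 1 (adjusted p = 0.0570) or 2 (adjusted p = 0.170), with the library number (adjusted p = 0.0646) and with only the groups compared (adjusted p = 0.149). Against NT, at 11.2, 17.1 and 17.6 TPM, it was 0.71 (adjusted p = 0.117, and 0.00953 with the replicate block). TFF3 was above its batch's siCTRL library in 3 of 3 batches in all 7 knockdown groups, 4 of which passed with the block and not without it: siVPS37A, siVPS37C, siVPS37BC and siVPS37ABC, with differences of 0.58, 0.66, 0.82 and 0.51 (adjusted p = 0.0492, 0.0486, 0.00809 and 0.0288 with the block). The means in siVPS37AB, siVPS37AC and siVPS37ABC were 16.0, 16.4 and 16.8 TPM, below the 25.6 ± 5.61 TPM (SD, n = 3) of siVPS37B. Its departures from the sum of the single changes, -1.22 ± 0.37 for siVPS37AB and -1.82 ± 0.52 for siVPS37ABC, did not pass (adjusted p = 0.419 and 0.360), and both passed with the block (adjusted p = 0.0305 and 0.0191). The average difference with the VPS37B siRNA was 0.29 (adjusted p = 0.127, and 0.0164 with the block).

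VIL1, the brush border protein, had values from 0.81 to 3.8 TPM, under the filter, and was tested without it. Its lowest mean was in siVPS37ABC, with 1.1, 1.56 and 0.81 TPM beside 1.29, 3.06 and 2.02 TPM in siCTRL, and the 2 groups overlapped. The difference of -0.51 ± 0.23 did not pass (adjusted p = 0.125) and did with the block (adjusted p = 0.0191). Against NT, at 1.72, 2.17 and 3.29 TPM, VIL1 fell by 0.64 (adjusted p = 0.0444), and in siVPS37AB it differed by -0.55 (adjusted p = 0.100, and 0.0126 with the block). Against siVPS37AC the difference in siVPS37ABC passed only with the block (adjusted p = 0.0390). The averages for the VPS37B and VPS37C siRNAs, -0.25 and -0.26, likewise passed only with the block (adjusted p = 0.0257 and 0.0259).

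KRT8 and KRT18, which adjoin each other in the genome, have many processed pseudogenes, so their values may include reads of near-identical copies and are uncertain. KRT8 was between 2044 and 5117 TPM and was called in none of the comparisons described here, with a difference of 0.07 ± 0.24 between siVPS37ABC and siCTRL (95% confidence interval -0.42 to 0.55). Its highest libraries, NT replicate 3 at 5117 TPM and siVPS37A replicate 3 at 5043 TPM, stood apart from the rest of their groups. KRT18, its filament partner, read 1898, 1780 and 1855 TPM in siVPS37B, the lowest mean, and 3059, 2977 and 3041 TPM in siVPS37AC, the highest. Both were outside the siCTRL range of 2274, 2695 and 2037 TPM. Against siCTRL no KRT18 difference passed: it was 0.36 in siVPS37A (adjusted p = 0.118), -0.33 in siVPS37B (adjusted p = 0.130) and 0.38 in siVPS37AC (adjusted p = 0.0543). With the block, siVPS37A and siVPS37AC passed (adjusted p = 0.0472 and 0.0215). Against NT, KRT18 rose by 0.45 in siVPS37A (adjusted p = 0.0159) and by 0.48 in siVPS37AC (adjusted p = 0.00682), where 7.09% and 14.1% of genes were called, 4.49% and 8.64% higher. Averaged over the transfected groups, KRT18 rose by 0.25 with the VPS37A siRNA (adjusted p = 0.00190) and by 0.19 with VPS37C (adjusted p = 0.0311), and fell by 0.18 with VPS37B (adjusted p = 0.0319). The VPS37B and VPS37C values did not pass with the library number as a term (adjusted p = 0.0935 and 0.0550), and each was also lost without some single libraries. The VPS37B value was lost with quantile normalization too (adjusted p = 0.131). None of these averages held evenly over the groups. The VPS37C average takes in KRT18 means of 1845 TPM in siVPS37B and 2701 TPM in siVPS37BC, but also 2976 TPM in siVPS37A and 3026 TPM in siVPS37AC. The VPS37A average takes in 2701 TPM in siVPS37BC and 2593 TPM in siVPS37ABC, a lower mean. The VPS37B average takes in 2538.5 TPM in siVPS37C and 2701 TPM in siVPS37BC, a higher mean.

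**Figure D4:**
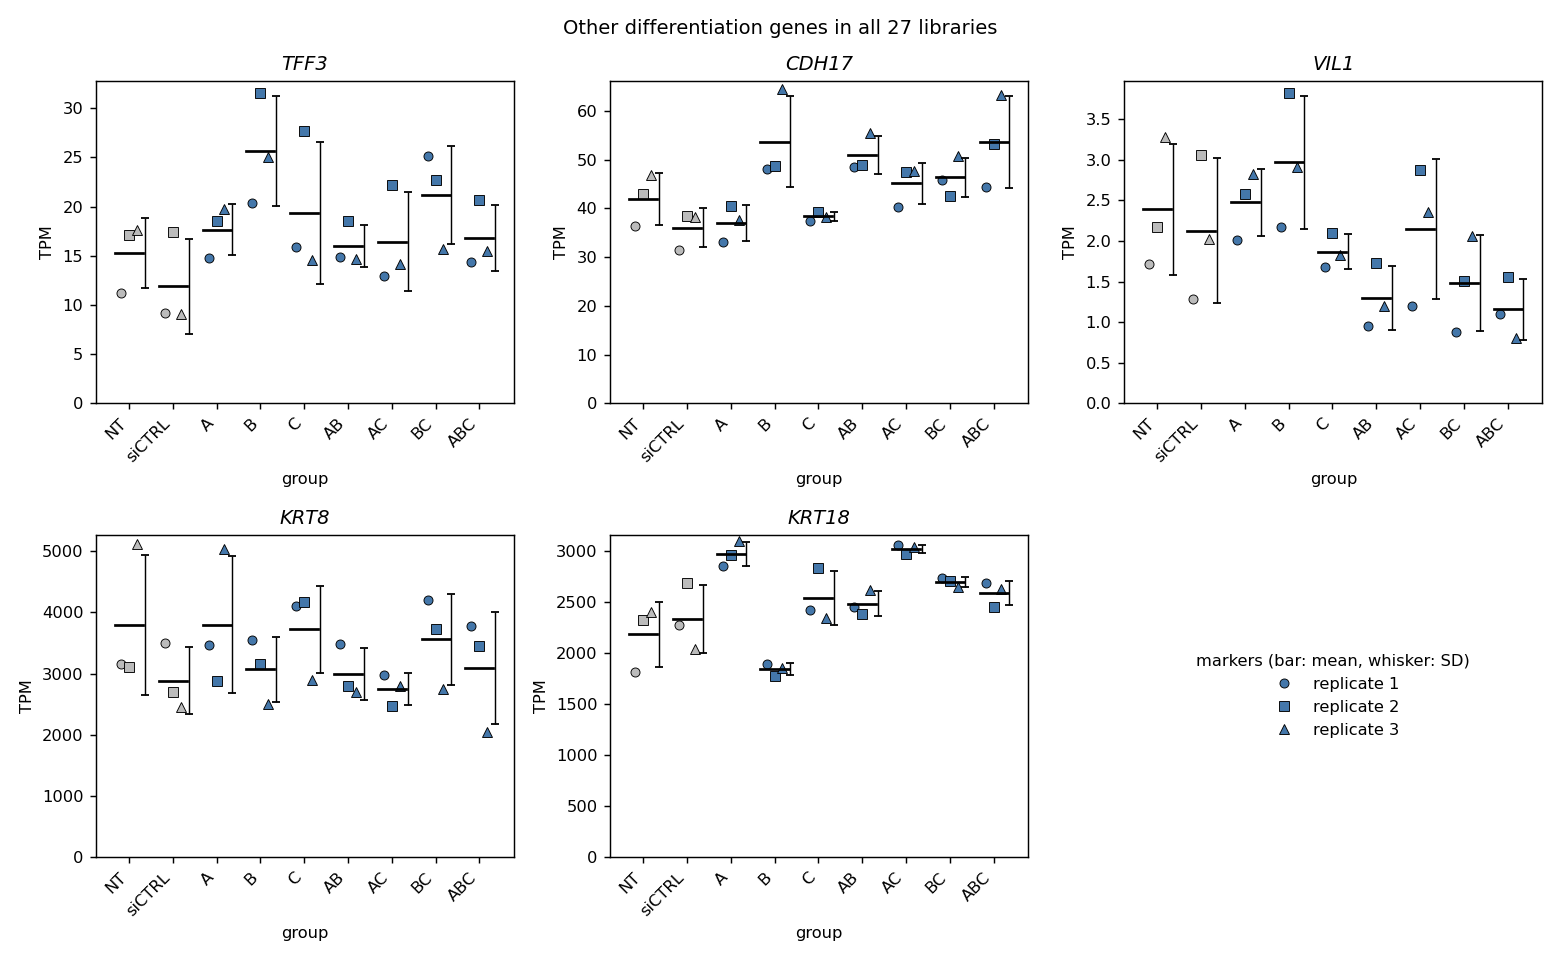
Levels (TPM) of CDH17, TFF3, VIL1, KRT8 and KRT18 in each library of the 9 groups, each gene on its own axis, with bars for the mean ± SD (n = 3). CDH17 in siVPS37B, siVPS37AB, siVPS37AC, siVPS37BC and siVPS37ABC and TFF3 in siVPS37B lie above all 3 siCTRL libraries, while KRT8 overlaps siCTRL in siVPS37ABC.

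Other intestinal genes were read from 5 lists to set the members beside their pathway. Among 13 tested transcription factors of the intestine, 2 rose in siVPS37ABC against siCTRL (KLF4 and PPARG) and 1 fell (CDX2). These counts are near the shares over all tested genes, 13.6% higher and 8.32% lower. The list median was -0.07 beside 0.03 over all tested genes, and against NT it was -0.22 beside 0.04. With the replicate block 3 rose and 3 fell, where the block called 33.1% of all tested genes, 19.4% higher and 13.6% lower. KLF4, a factor of post-mitotic intestinal cells, rose by 0.62 ± 0.16 (adjusted p = 0.00787), a call lost without siCTRL replicate 3 (adjusted p = 0.0540), and by 0.58 in siVPS37AB (adjusted p = 0.0181), a call lost without siVPS37AB replicate 1 (adjusted p = 0.0798) and siCTRL replicate 2 (adjusted p = 0.0716) or 3 (adjusted p = 0.0983), with the library number (adjusted p = 0.0715) and with quantile normalization (adjusted p = 0.0679). PPARG, a lipid-sensing nuclear receptor, rose by 0.62 ± 0.18 (adjusted p = 0.0115), and this was lost without siCTRL replicate 1 (adjusted p = 0.0531) or siVPS37ABC replicate 3 (adjusted p = 0.0896). Of 36 brush border and absorptive cell genes 12 were in the table and 7 were tested. Of these 1 rose in siVPS37ABC, near the 13.6% called higher over all tested genes. That gene was MYO1D, an unconventional myosin, which rose by 0.59 ± 0.15 (adjusted p = 0.00702). The list median was 0.16, and 2 rose with the block, beside the same 19.4% of all genes. Against NT the list median in siVPS37ABC was 0.03 beside 0.04 over all tested genes.

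Among 7 tested goblet cell and mucin genes, 2 rose in siVPS37ABC and 1 fell, beside 13.6% called higher and 8.32% lower over all tested genes. The list median was 0.56 beside 0.03 over all genes, and against NT it was 0.28 beside 0.04. MUC13, a membrane mucin, rose by 0.97 ± 0.19 in siVPS37AB (adjusted p = 0.00121) and by 0.56 in siVPS37ABC (adjusted p = 0.0383), the second of which was lost without siCTRL replicate 1 (adjusted p = 0.256) and siVPS37ABC replicate 2 (adjusted p = 0.175) or 3 (adjusted p = 0.0682). It was also lost with quantile normalization (adjusted p = 0.0632), with only the groups compared in the fit (adjusted p = 0.103) and against NT (adjusted p = 0.107). SPINK4, a secreted goblet cell peptide, rose by 0.90 ± 0.32 (adjusted p = 0.0453) and in siVPS37AC by 1.14 (adjusted p = 0.0411), and leaving out single libraries raised these to at most 0.262 and 0.212. The siVPS37ABC call for SPINK4 was also lost with the library number (adjusted p = 0.0597), a pseudocount of 8 (adjusted p = 0.0554), quantile normalization (adjusted p = 0.0931) and only the groups compared (adjusted p = 0.0519), and the siVPS37AC call with the last 2 of these (adjusted p = 0.104 and 0.0545). SPINK4 was also called higher in siVPS37AB against siCTRL. Against NT it was called higher in every knockdown group, by 1.49 in siVPS37ABC (adjusted p = 0.00123) and by 1.73 in siVPS37AC (adjusted p = 8.78e-04). GALNT12, an enzyme that starts O-glycans on mucins, fell by 0.85 ± 0.15 in siVPS37ABC (adjusted p = 1.31e-04) and by 0.60 in siVPS37AB (adjusted p = 0.00694, and 0.0707 without siVPS37AB replicate 1). With the block 5 of the 7 rose in siVPS37ABC and 1 fell, beside 19.4% and 13.6% of all genes. In siVPS37B the list median was 0.74, with 1 gene called higher (TFF3), beside 0.929% of all genes, and 5 with the block, beside 4.61%. Against NT the list median in siVPS37B was 0.36.

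Of 10 tested keratin and other intermediate filament genes, 4 rose in siVPS37ABC (KRT19, KRT20, KRT80 and LMNA) and 2 fell (LMNB1 and LMNB2). Beside them, 13.6% of all tested genes were called higher and 8.32% lower. The list median was 0.35 beside 0.03 over all tested genes. Against NT the list median in siVPS37ABC was 0.02 beside 0.04 over all tested genes, and in siCTRL against NT it was -0.28. In siVPS37ABC against NT, KRT19, KRT20 and KRT80 were called higher and LMNA was not, beside 14.3% of all tested genes called higher. KRT80, a keratin of differentiating epithelia, rose by 1.14 ± 0.17 (adjusted p = 2.11e-05), and KRT19, a keratin of simple epithelia, by 0.63 ± 0.13 (adjusted p = 6.78e-04). LMNB1, a nuclear lamin, fell by 1.00 ± 0.12 (adjusted p = 1.05e-06), and by 0.80 in siVPS37AB (adjusted p = 4.88e-05).

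Of 20 tested adhesion and junction genes, 7 rose in siVPS37ABC (CDH17, EPCAM, CLDN1, CLDN4, CLDN7, CLDN12 and CTNNA1) and 2 fell (PKP2 and LGALS3). Over all tested genes 13.6% were called higher, and 8.32% lower, which is near the 2 of 20 here. The list median was 0.21 beside 0.03 over all tested genes, and against NT it was 0.31 beside 0.04. CLDN1, a tight junction claudin, read 6.84, 7.07 and 5.22 TPM in siCTRL, 14, 10.7 and 11.5 TPM in NT and 35.5, 28.3 and 34.4 TPM in siVPS37ABC. The siVPS37ABC libraries were above all others of these groups, and the NT libraries above siCTRL. CLDN1 rose by 2.20 ± 0.18 against siCTRL (adjusted p = 5.09e-09) and by 1.37 against NT. In siVPS37A and siVPS37AC it rose by 1.01 and 1.04 against siCTRL (adjusted p = 0.00224 and 0.00126), and against NT the values were 0.18 and 0.22 (adjusted p = 0.620 and 0.446). Other claudins rose in siVPS37ABC, CLDN4 by 1.23 ± 0.14 (adjusted p = 3.67e-07) and CLDN12 by 1.03 ± 0.15 (adjusted p = 1.28e-05). JUP, the junction protein plakoglobin, fell in siVPS37AC by 0.54 ± 0.13 (adjusted p = 0.0118), and the call was lost without siVPS37AC replicate 1 (adjusted p = 0.0770) or siCTRL replicate 2 (adjusted p = 0.0599).

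**Figure D5:**
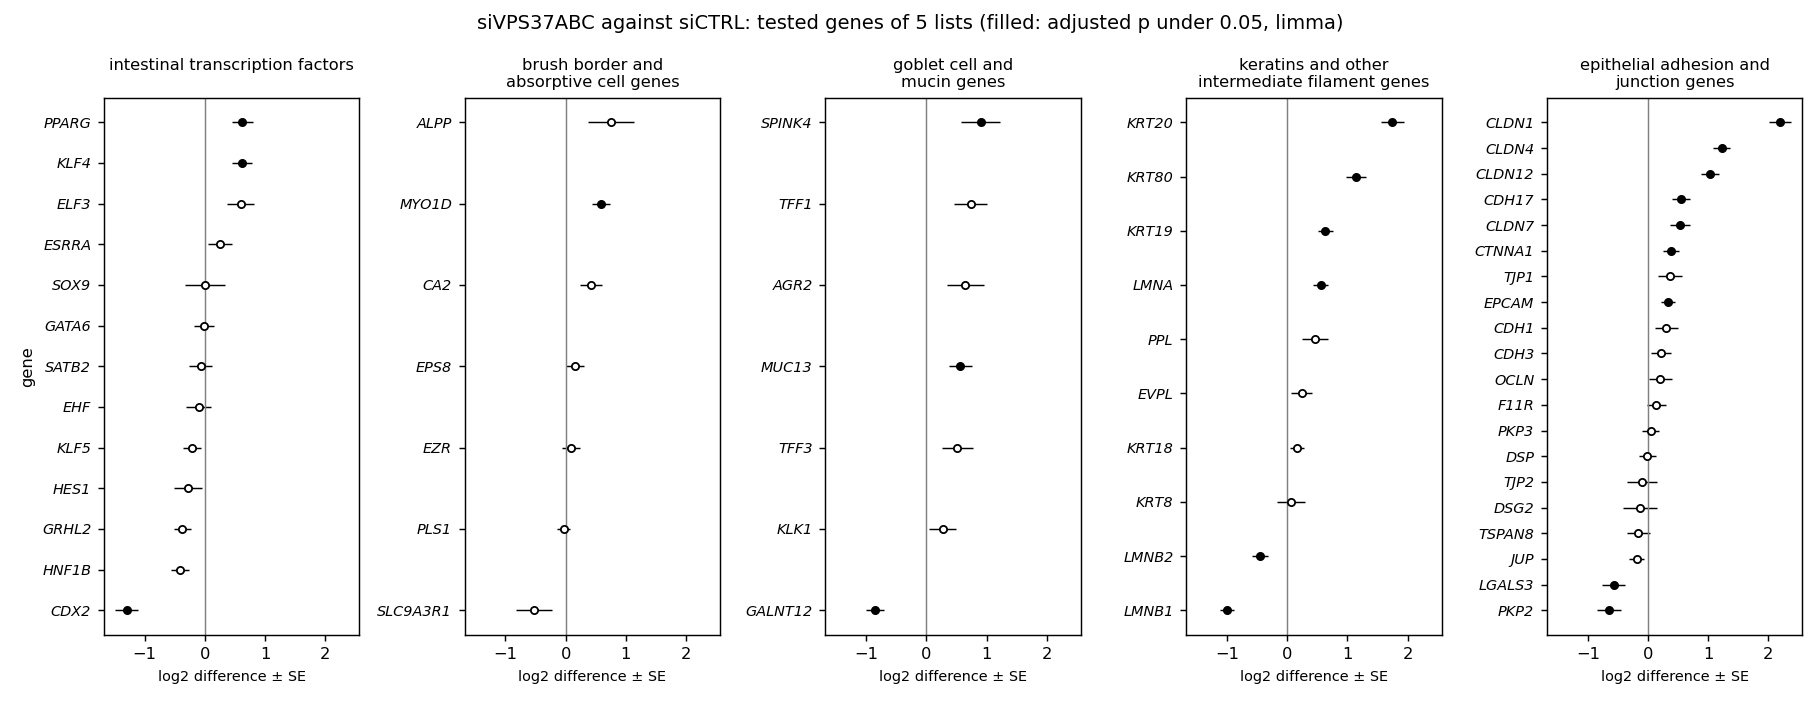
Log2 changes in siVPS37ABC against siCTRL for the tested genes of the 5 lists, with error bars of 1 SE and filled points for an adjusted p under 0.05. CLDN1 (2.20) and KRT20 (1.75) are the highest and CDX2 (-1.30) the lowest.

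The genes whose group means most resembled those of KRT20 and CDX2 were found among 2598 other genes that averaged 50 TPM or more, by Pearson's r over the 9 group means of log2(TPM + 1). For KRT20 they included PDLIM7 (r = 0.962), ANXA1 (r = 0.957) and UBAP2 (r = 0.952). ANXA1, an annexin, differed by 1.61 between siVPS37ABC and siCTRL and by -0.79 between siCTRL and NT. PDLIM7, a cytoskeletal adaptor, had values of 0.98 and -0.64 in the same 2 comparisons, and UBAP2, a ubiquitin-associated protein, of 0.33 and -0.13. For CDX2 the most similar were TYMS (r = 0.995), RBM17 (r = 0.984), TPX2 (r = 0.983) and HIST1H3J (r = 0.974). TYMS makes thymidylate for DNA synthesis, TPX2 assembles the mitotic spindle, RBM17 is a splicing factor and HIST1H3J encodes a replication-dependent histone with near-identical copies, whose value is therefore uncertain. They differed between siVPS37ABC and siCTRL by -0.68, -0.78, -0.51 and -1.80 in that order. All points come from the same libraries, so these correlations describe the groups and carry no test.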

How the data were processed

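The study measured RNA of 27 DLD1 libraries with an amplicon panel. The deposited table gives 10470 genes, and its columns sum to 1000000 each, so that the authors' deposited values were treated as TPM although the table is named as normalized counts. Per the submitters' processing notes, HTSeq 0.6.0, DESeq2 1.18.1 and hg19 are named, with no role given. In all, 2157 empty rows were left out. Whole reads could not be recovered: of 200 low values per library, between 5.5% and 11% lay within 0.02 of a whole multiple at the best of 20 steps tried, so depth is unknown and no count model was run.

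Values were tested as log2(TPM + 1) with limma 3.58.1 (R 4.3.3, trend), 9 group means and Benjamini-Hochberg adjustment over the 6458 genes that averaged 10 TPM or more. The member below that, VIL1, was read from an unfiltered fit. The script was tested on simulated data. Replicate numbers pair the samples, because the labels give the same number as the batch. Residuals correlated at a mean r of 0.355 over 108 pairs of libraries with the same number and -0.175 over 216 pairs from other groups with different numbers. They were taken from the group means, which ties the second value to the first, so it is not separate evidence of pairing. Nothing says what else separates the replicates, so p-values measure the spread between these libraries, which may be technical. Alternatives were the replicate block, the library number as a term, other pseudocounts, filters and normalization, only the groups compared, NT as the reference, and leaving out each library.

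The members and gene lists were chosen with earlier results of these data known. Named were the members, the siRNA targets, in each list the 4 non-members of smallest p past the threshold in siVPS37ABC against siCTRL and up to 2 in the other comparisons with siCTRL, and the 4 genes most like KRT20 and the 4 most like CDX2, of which 1 is not reported here. Gene names printed only to spell out a count were added after their values were seen. Upstream sequences came from RefSeq (GRCh38.p14), where 3 of the 7 members were matched. This is another build than the hg19 of the notes, and no coordinates were joined to the deposited values.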

Additional observations from a re-analysis of the deposited data

How the results depend on the processing

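The rise of KRT20 and the fall of CDX2 in siVPS37AB and siVPS37ABC against siCTRL held under every alternative run except NT as the reference, where KRT20 in siVPS37AB no longer passed. With NT as the reference KRT20 changed sign in 5 of 7 knockdown groups: siVPS37A (-0.44), siVPS37B (-0.82), siVPS37C (-0.64), siVPS37AC (-0.30) and siVPS37BC (-0.48). The number of members called then went from 0 to 1 in siVPS37A and siVPS37C, from 2 to 1 in siVPS37B, from 1 to 2 in siVPS37AC and from 3 to 1 in siVPS37AB. The replicate block took it from 0 to 3 in siVPS37A, from 0 to 1 in siVPS37C, from 0 to 2 in siVPS37BC, from 1 to 2 in siVPS37AC, and from 0 to 1 for the departures of siVPS37AB and siVPS37ABC, and moved no other count against siCTRL, between combinations, of departures or of averages by more than 1.5 times. Against NT the block took it from 1 to 2 in siVPS37A, from 1 to 3 in siVPS37B and from 0 to 1 in siVPS37BC. The library number as a term gave 1 in siVPS37A and in siVPS37BC, 2 in siVPS37AC, 0 in siVPS37B and 1 for the VPS37C average. As siVPS37A, siVPS37AB and siVPS37BC share no library number with siCTRL, their values with that term rest only on links through other groups. A filter at a mean of 50 TPM, under which TFF3 and CDH17 were not tested, gave 0 in siVPS37B and 2 in siVPS37AC. Quantile normalization gave 0 in siVPS37AC, and fitting only the groups compared gave 0 in siVPS37B. Leaving out 1 library gave 0 to 1 in siVPS37B, siVPS37AC and siVPS37BC and 1 to 2 for the VPS37C average. The causes were not tested beyond the filter. Count models (edgeR and DESeq2) were not run, since whole reads were not recovered. With depth unknown, the precision of TFF3 and VIL1, the members of lowest level, could not be given.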
